A study of Homo sapiens with 8 samples.

Results

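The 10 genes described here make, sense and break down prostaglandins: PLA2G4A, PTGS1, PTGS2, PTGES, PTGES2, PTGES3, PTGIS, PTGER2, PTGER4 and HPGD, 10 of the 18417 genes measured. They were named by symbol round the lower signal of PTGS2 after CDK9 silencing, so their differences between the groups are a description, and how many of them pass a test is read as support for nothing. Each had 1 probe set with a single annotated symbol. U2OS cells, a human osteosarcoma line whose name is also written U20S in the labels, were transfected with siRNA against CDK9 (CDK9 Knock Down, n = 4) or with a non-targeting siRNA (Nonspecific siRNA, n = 4). Both siRNAs were used at 10 nM, in DMEM with serum, and RNA was collected 72 h later for Affymetrix human gene arrays. All replicates come from 1 cell line, and the sources used here do not give the siRNA sequences or a second CDK9 siRNA.

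Prostaglandins are lipid signals made from arachidonate. A phospholipase frees arachidonate from membranes, the cyclooxygenases PTGS1 and PTGS2 turn it into prostaglandin H2, and terminal synthases turn that into prostaglandin E2, prostacyclin and related products. PTGS1 is present in most tissues, whereas PTGS2 is induced by growth factors, cytokines and serum and has a short-lived transcript. In bone, prostaglandin E2 acts on both osteoblasts and osteoclasts, largely through the receptors EP2 and EP4.

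The deposited log2 values fell into array set 1 (replicate 1 of each group) and array set 2 (replicates 2 to 4), which the numbers in the sample descriptions also separate. Array medians were 5.85 and 5.80 in set 1 (CDK9 siRNA, then nonspecific siRNA) and 6.99 to 7.04 in set 2. Levels are therefore compared within a set, and the fit over all genes has the array set as a block. The labels do not say what sets the array sets apart. CDK9 itself stood at 28.4% of the nonspecific siRNA signal. Of osteoblast lineage markers, 7 of 10 measured lay outside the lowest 30% of genes by mean signal (a limit of 6.14, below which genes are called dim here), among them RUNX2, SP7, COL1A1, SPARC and SPP1. ALPL, IBSP and DLX5 were dim, as were 5 of 6 leukocyte markers (PTPRC at a mean of 4.16) and 5 of 5 endothelial markers. Of 6 epithelial markers 4 were dim, EPCAM and CDH1 among them, and KRT14 (mean 7.70) and CLDN4 (6.82) were not. In the limma fit RUNX2 (-0.60), COL1A1 (-0.51) and MSX2 (-0.56) were lower and EPCAM (0.32) higher after CDK9 siRNA, on the log2 scale. SPP1 was higher as well, at 9.06 to 9.18 in CDK9 siRNA against 7.68 to 7.82 in nonspecific siRNA of set 2. The part of these changes in the results on prostaglandin genes was not tested. In RNA from whole cultures, fewer cells with a transcript and less of it per cell cannot be told apart.

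PTGS2, the inducible cyclooxygenase, was lower in CDK9 siRNA cells of array set 2 and almost level in array set 1. Its log2 signal was 7.09, 6.65 and 6.94 in replicates 2 to 4 of CDK9 siRNA, against 8.17, 8.0 and 8.05 in nonspecific siRNA. These groups did not overlap, and the CDK9 siRNA mean was 44.1% of the other. In the replicate 1 pair the signal was 4.73 with CDK9 siRNA and 4.80 with nonspecific siRNA, or 95.4%. The log2 difference was -1.18 in set 2, -0.07 in set 1 and -0.90 ± 0.18 over both (SE, n = 4 per group). The combined value therefore describes neither set. In the 6 arrays of set 2 the SD was 0.22 within CDK9 siRNA and 0.09 within nonspecific siRNA. The residual SD of the fit over both sets was 0.34.

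**Figure D1:**
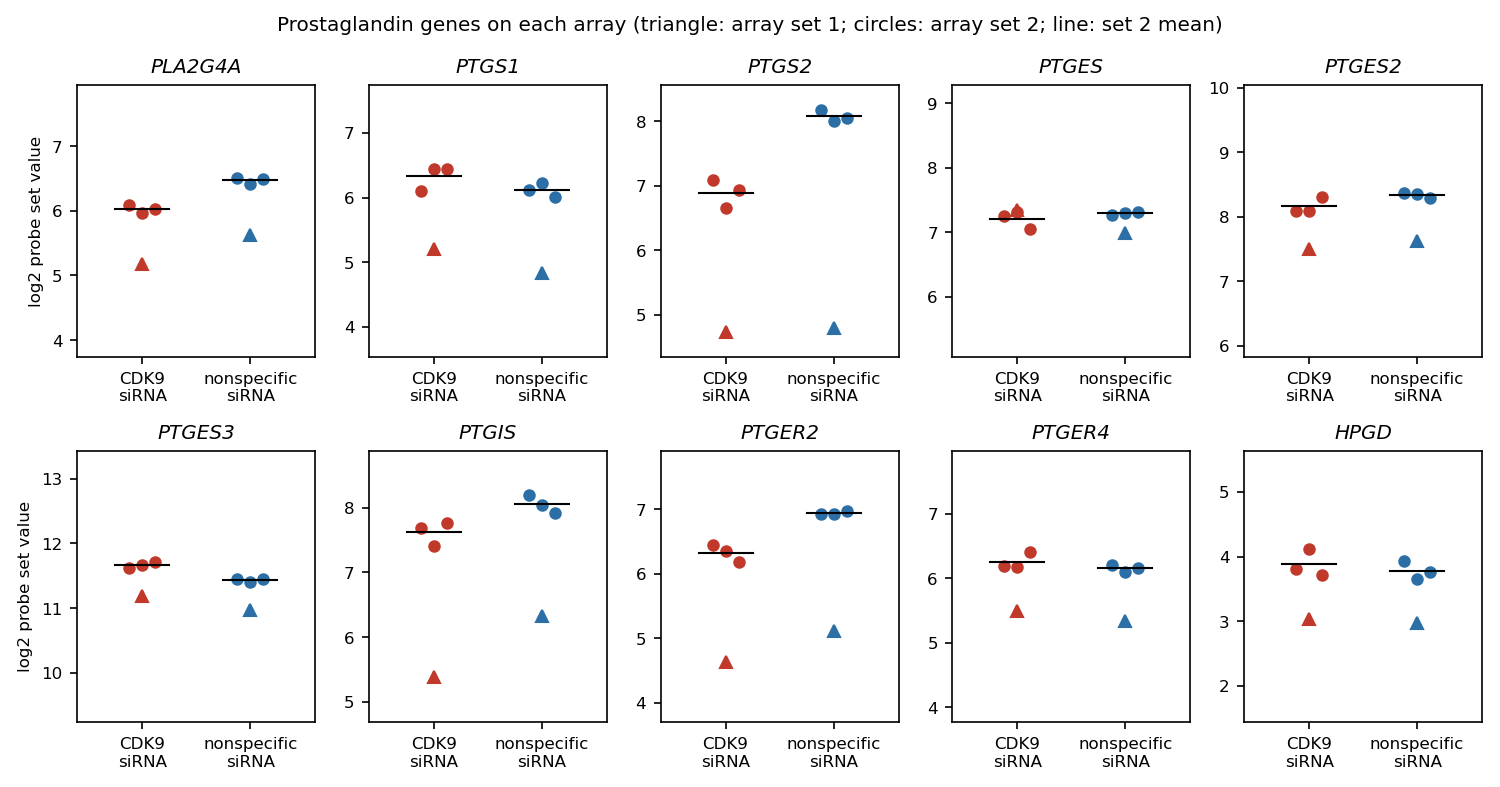
Log2 signal (vertical axes, all spanning the same range) of each of the 10 genes in CDK9 siRNA (red) and nonspecific siRNA (blue) cells; triangles are replicate 1 (array set 1), circles replicates 2 to 4 (array set 2) and lines the set 2 means. PTGS2 separates in set 2, with 6.65 to 7.09 in CDK9 siRNA against 8.0 to 8.17 in nonspecific siRNA, and both of its triangles lie near 4.8.

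The level of PTGS2 also differed between the array sets more than that of nearly all genes. From set 1 to set 2 it was higher by 2.16 in CDK9 siRNA and by 3.27 in nonspecific siRNA on the log2 scale, where the median gene was higher by 1.05 and 1.07. In nonspecific siRNA 19 of the 18417 genes had a larger shift, and in CDK9 siRNA 436 did. In set 1 PTGS2 lay 1.12 (CDK9 siRNA) and 1.0 (nonspecific siRNA) below its array's median. Without detection calls it is not known whether these values lie above background, where a fall could be seen. The CDK9 siRNA difference of PTGS2 in set 1 minus that in set 2 was 1.11 on the log2 scale. It is given without a test, since PTGS2 was chosen from these arrays and set 1 holds 1 array per group. In a limma interaction test of group and array set, 2.14% of all genes passed at an adjusted p of 0.05, and nothing is read from it for the 10 genes.

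**Figure D2:**
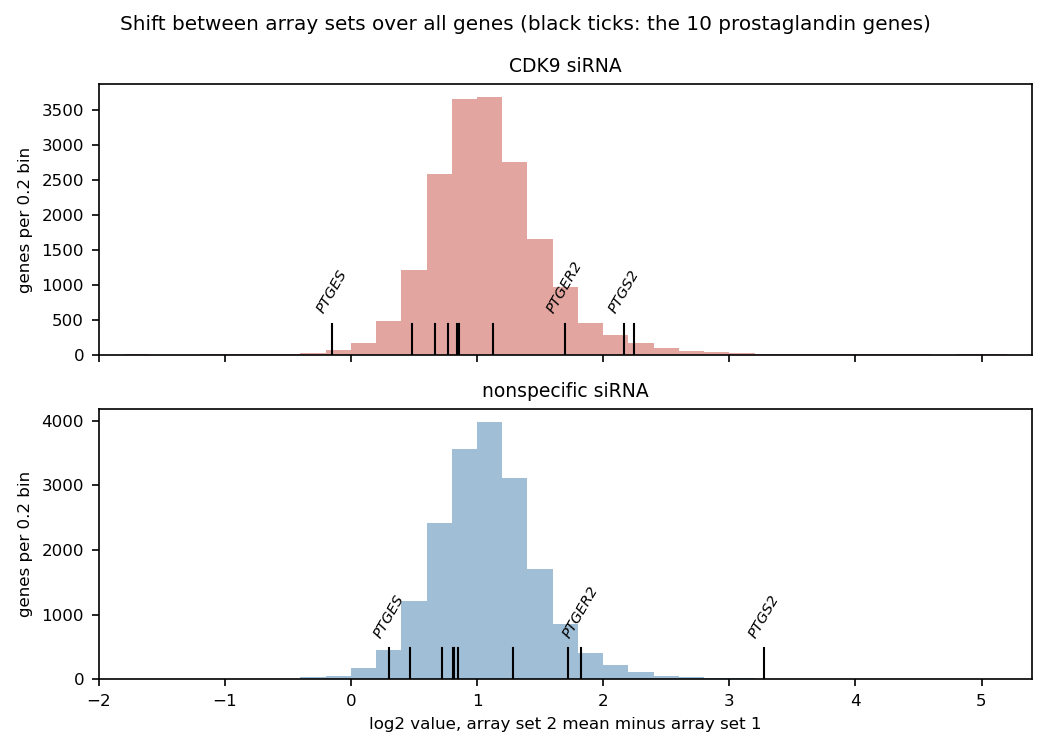
Number of genes (vertical axis) by the log2 signal of array set 2 minus that of array set 1 (horizontal axis), for CDK9 siRNA (top) and nonspecific siRNA (bottom); black ticks mark the 10 prostaglandin genes. PTGS2 lies at 2.16 and 3.27, to the right of the median genes at 1.05 and 1.07.

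PTGS1 is the sister enzyme that catalyses the same step. Its signal was 5.20, 6.11, 6.44 and 6.44 in replicates 1 to 4 of CDK9 siRNA, against 4.83, 6.11, 6.22 and 6.01 in nonspecific siRNA. Its groups overlapped in set 2, and it differed by 0.25 ± 0.09 on the log2 scale (SE, n = 4 per group). It is a dim gene, with a mean of 5.92.

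The bases just before the annotated starts of both cyclooxygenase genes are shown because the genes differ here and are known to be controlled differently. They come from RefSeq (GRCh38.p14), matched by symbol, are written 5′ to 3′ along the gene, and end 1 base before the start. The PTGS2 window is chr1:186680424-186680673 on the minus strand. PTGS1 has 2 annotated starts on the plus strand, with windows at chr9:122370283-122370532 and chr9:122375052-122375301. Capitals mark matches on either strand to TATAAA (the TATA box), TGACG (a half-site of the cAMP response element), TGANTCA (AP-1), TTNNGCAAT (C/EBP) and GGG and CCC held 4 bases apart (a loose outline of an NF-kappaB site).
PTGS2: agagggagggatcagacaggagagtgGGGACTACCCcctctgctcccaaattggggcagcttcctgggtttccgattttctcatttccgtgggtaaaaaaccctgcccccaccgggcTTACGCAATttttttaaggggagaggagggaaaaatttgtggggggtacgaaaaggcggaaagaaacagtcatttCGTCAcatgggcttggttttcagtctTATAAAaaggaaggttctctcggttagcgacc
PTGS1, first start: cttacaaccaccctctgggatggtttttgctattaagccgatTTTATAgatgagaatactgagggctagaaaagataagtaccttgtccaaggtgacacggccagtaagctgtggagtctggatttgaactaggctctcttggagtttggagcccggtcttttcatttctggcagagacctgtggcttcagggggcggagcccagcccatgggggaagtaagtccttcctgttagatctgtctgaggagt
PTGS1, second start: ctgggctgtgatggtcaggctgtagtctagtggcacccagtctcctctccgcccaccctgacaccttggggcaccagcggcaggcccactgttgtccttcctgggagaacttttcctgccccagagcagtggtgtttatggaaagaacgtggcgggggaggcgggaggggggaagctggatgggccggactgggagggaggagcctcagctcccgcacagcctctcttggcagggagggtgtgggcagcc
The PTGS2 window held 4 of the 5 motifs, each once. TATAAA began 32 bases before the start, the half-site 58, the C/EBP match 133 and the NF-kappaB outline 224 bases before it, and no 2 of them overlapped. The first PTGS1 window held only TATAAA, on the other strand and beginning 208 bases before the start, and the second held none of the 5. Among 35116 RefSeq promoter windows of the same length, 10.7% held TATAAA, 21.2% the half-site, 6.57% TGANTCA, 2.04% the C/EBP motif and 16.1% the NF-kappaB outline. Among the other prostaglandin genes, the windows of PTGES3 and PTGER2 each held the half-site and the NF-kappaB outline, and HPGD held them in separate windows. PTGER4 and a PTGES2 window held the outline, and PTGES held none of the motifs. A match is a string of letters and shows no binding.

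PLA2G4A encodes the cytosolic phospholipase that frees arachidonate, the first step of the route, and was lower in both array sets. Its signal was 5.17, 6.09, 5.97 and 6.04 in CDK9 siRNA replicates 1 to 4, against 5.63, 6.51, 6.41 and 6.50 in nonspecific siRNA. Each CDK9 siRNA array was below the nonspecific arrays of its own set. The log2 difference was -0.46 in set 1, -0.44 in set 2 and -0.45 ± 0.05 over both (SE, n = 4 per group), which is 73.4% of the nonspecific siRNA level. PLA2G4A has a mean of 6.04, just inside the dim range. On chromosome 1 it is the next protein-coding gene to PTGS2 in the RefSeq annotation, with their starts 149 kb apart and 1 other gene, the long noncoding RNA PACERR, between them. The genes point away from each other, PLA2G4A on the plus and PTGS2 on the minus strand. The window before the PLA2G4A start (chr1:186828699-186828948) is printed for comparison with that of its neighbour, and held none of the 5 motifs.
PLA2G4A: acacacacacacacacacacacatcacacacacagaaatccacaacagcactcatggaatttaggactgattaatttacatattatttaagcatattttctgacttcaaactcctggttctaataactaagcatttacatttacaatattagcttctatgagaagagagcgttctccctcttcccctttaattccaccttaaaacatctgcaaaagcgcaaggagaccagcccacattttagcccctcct

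Of the 3 genes assigned to prostaglandin E2 formation, PTGES3 was higher in both array sets, and the groups of PTGES and PTGES2 overlapped in set 2. PTGES, the inducible microsomal synthase that often acts with PTGS2, read 7.35, 7.25, 7.32 and 7.04 in CDK9 siRNA replicates 1 to 4, against 6.99, 7.27, 7.31 and 7.31 in nonspecific siRNA. Its log2 difference was 0.36 in set 1 and -0.09 in set 2, with overlapping groups in set 2 and 0.02 ± 0.09 over both (SE, n = 4 per group). It was the only one of the 10 whose sets differed in sign. PTGES2, a membrane-associated synthase, read 7.49, 8.08, 8.10 and 8.31 in CDK9 siRNA, against 7.62, 8.37, 8.36 and 8.29 in nonspecific siRNA, a log2 difference of -0.16 ± 0.06. CDK9 siRNA replicate 4 overlapped the nonspecific arrays.

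PTGES3 encodes p23, a cochaperone of HSP90 that was also described as the cytosolic prostaglandin E synthase. Its signal was 11.18, 11.63, 11.67 and 11.71 in CDK9 siRNA replicates 1 to 4, against 10.97, 11.45, 11.40 and 11.45 in nonspecific siRNA. The CDK9 siRNA arrays were above the nonspecific arrays in both sets, by 0.22 in set 1 and 0.23 in set 2 (0.23 ± 0.05 over both, SE, n = 4 per group), or 1.17-fold.

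PTGIS, prostacyclin synthase, was lower in both sets. It read 5.37, 7.69, 7.40 and 7.77 in CDK9 siRNA replicates 1 to 4, against 6.33, 8.20, 8.05 and 7.92 in nonspecific siRNA. Here set 1 had the larger gap, -0.96 against -0.43 in set 2, the reverse of PTGS2, and the log2 difference over both was -0.56 ± 0.12 (SE, n = 4 per group). The groups did not overlap in set 2, where 7.77 and 7.92 were the closest values.

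The prostaglandin E2 receptors EP2 (PTGER2) and EP4 (PTGER4) both raise cAMP. PTGER2 was lower in both array sets, while the groups of PTGER4 overlapped in set 2. PTGER2 read 4.63, 6.45, 6.36 and 6.18 in CDK9 siRNA replicates 1 to 4, against 5.12, 6.93, 6.92 and 6.98 in nonspecific siRNA. Its groups stood apart in set 2 and its log2 difference was -0.49 in set 1 and -0.61 in set 2 (-0.58 ± 0.07 over both, SE, n = 4 per group), or 66.8% of the nonspecific siRNA level. PTGER2 lies just above the dim limit, at a mean of 6.20. PTGER4, a dim gene, read 5.49, 6.19, 6.18 and 6.41 in CDK9 siRNA against 5.34, 6.21, 6.10 and 6.16 in nonspecific siRNA, with overlapping groups in set 2 and a difference of 0.11 ± 0.06. HPGD, the dehydrogenase that inactivates prostaglandin E2, had the lowest mean of the 10 probe sets, 3.62. It read 3.03, 3.80, 4.11 and 3.72 in CDK9 siRNA and 2.96, 3.93, 3.65 and 3.77 in nonspecific siRNA, with overlapping groups in set 2 and a difference of 0.09 ± 0.09.

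In all, 1 of the 10 genes (PTGES3) was higher and 4 (PLA2G4A, PTGS2, PTGIS and PTGER2) were lower past an adjusted p of 0.05 over all genes in limma, and 5 were not called. The same fit called 14.2% of all genes, 6.73% as higher and 7.47% as lower. Because PTGS2 was chosen from this contrast and the rest were chosen with it known, nothing is read from that count. The same 5 were called under a replicate block, where 9.17% of all genes were called (4.41% higher and 4.75% lower), and in array set 2 alone, where 18.1% were (9.52% higher and 8.57% lower). Leaving out 1 array changed 3 calls: PTGES3 was not called without nonspecific siRNA replicate 3, while PTGES2 was called lower without CDK9 siRNA replicate 4 and PTGS1 higher without CDK9 siRNA replicate 2. Without a block limma called none of them, and 0.0% of all genes, where an unadjusted p under 0.05 was reached by 28 genes upward and 23 downward. In set 2 the groups of these 5 genes did not overlap, as for 38.1% of all genes. The median log2 difference of the 10 was -0.07, against 0.00 over all genes. Of the 10, 6 lay outside the dim range, and PLA2G4A was the called gene inside it.

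**Figure D3:**
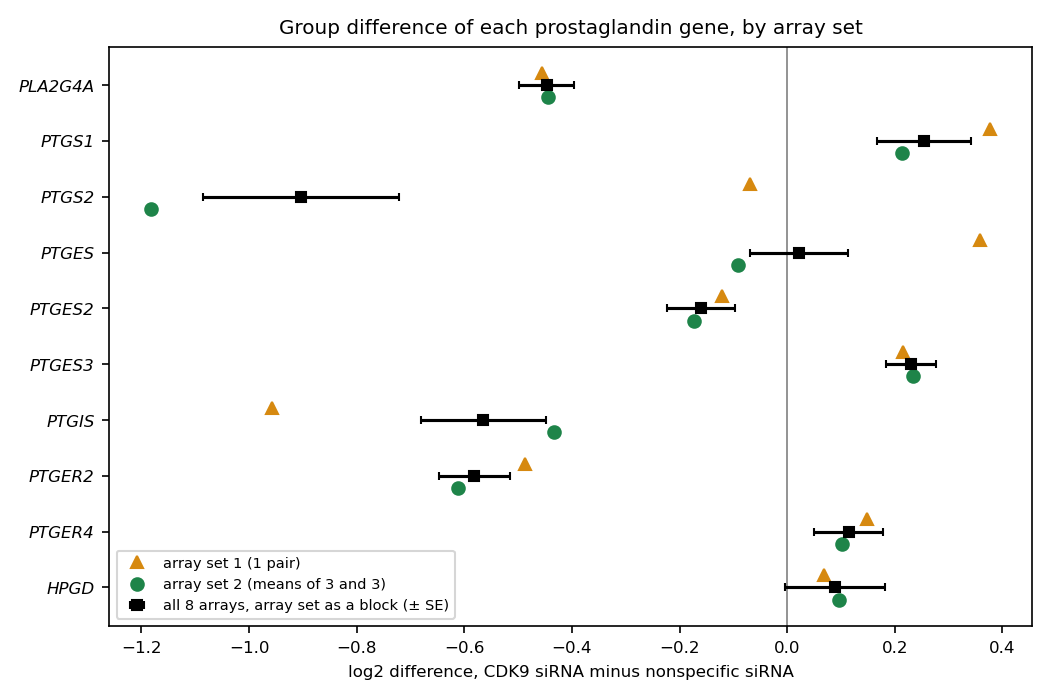
Log2 difference of CDK9 siRNA minus nonspecific siRNA (horizontal axis) for the 10 genes, from all 8 arrays with the array set as a block (black squares with SE), from the array set 1 pair (triangles) and from array set 2 (circles). The array sets lie close together for PLA2G4A, PTGES3 and PTGER4 and far apart for PTGS2 (-0.07 and -1.18) and PTGIS (-0.96 and -0.43).

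The 5 genes most like PTGS2 were PANX2, IER2, FSCN1, COL6A3 and DHX16. Likeness was the Pearson correlation over the 8 arrays after each array set's mean was subtracted, among the 12891 other genes outside the dim range, and all arrays of a group share its siRNA. The coefficients were 0.990, 0.989, 0.989, 0.988 and 0.987. IER2 is an immediate-early gene, FSCN1 encodes the actin bundler fascin and COL6A3 a collagen VI chain. Their log2 differences were 0.00 for IER2, 0.00 for FSCN1 and -0.05 for COL6A3 in set 1, and -0.47, -0.23 and -0.98 in set 2. Over the 6 arrays of set 2 alone none of these 5 was among the 5 most alike, and their ranks were 39 to 66, with coefficients of 0.987 to 0.990. Of the other prostaglandin genes outside the dim range, PTGER2 had a coefficient of 0.880, PTGES2 0.724, PTGIS 0.649, PTGES 0.230 and PTGES3 -0.864.

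Other genes of the route were read from lists drawn up by function, but with earlier results of these data known. Their tests are from the limma fit over all genes, which called 6.73% of all genes as higher and 7.47% as lower. The counts per list are a description, and nothing is read from them. Of 6 other prostanoid synthase genes measured, 2 rose and 0 fell. CBR1, a carbonyl reductase that can convert prostaglandin E2 to F2alpha, rose by 0.34 ± 0.06 (log2, SE, n = 4 per group, adjusted p = 0.00445), with 8.13, 8.79, 8.97 and 8.90 in CDK9 siRNA against 7.76, 8.54, 8.60 and 8.51 in nonspecific siRNA. AKR1C3, a prostaglandin F synthase, rose by 0.24 (adjusted p = 0.0170). Its difference stayed at 0.24 without nonspecific siRNA replicate 2 or 3, but the call was lost (adjusted p = 0.0512 and 0.0608), and its near-identical AKR1C relatives make the probe set uncertain. PTGR3, which reduces 15-keto prostaglandins, was the 1 gene of 5 in the transport and breakdown list to pass, and rose by 0.41 ± 0.05 (adjusted p = 0.00109). Its CDK9 siRNA arrays read 8.02, 9.51, 9.57 and 9.48, against 7.71, 9.10, 9.07 and 9.08 in nonspecific siRNA, above in both sets. The median of that list was nevertheless -0.14, and in array set 2 alone the transporters SLCO2A1 (-0.35, adjusted p = 0.00689) and ABCC4 (-0.22, 0.0419) also passed as lower.

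Among 7 other prostanoid receptors 1 fell and 0 rose. This was PTGFR, the receptor of prostaglandin F2alpha and a dim gene, at -0.44 ± 0.11 (log2, SE, n = 4 per group, limma adjusted p = 0.0268). It read 4.62, 5.74, 5.34 and 5.50 in CDK9 siRNA against 4.87, 6.14, 5.81 and 6.13 in nonspecific siRNA, without overlap in set 2. The call was lost without CDK9 siRNA replicate 3 or 4 (adjusted p = 0.0704 and 0.0625) or nonspecific siRNA replicate 2 or 4 (0.0752 and 0.0792).

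Of 20 other phospholipases A2 and their inhibitors, 1 rose and 2 fell. PLA2G7, which breaks down platelet-activating factor, fell by 0.80 ± 0.09 (adjusted p = 0.000819, limma, n = 4 per group), with 5.34, 7.16, 7.02 and 7.22 in CDK9 siRNA against 5.82, 8.0, 8.17 and 7.92 in nonspecific siRNA. PLA2G15, a lysosomal phospholipase, fell by 0.27 (adjusted p = 0.0147, and 0.0503 without nonspecific siRNA replicate 4). PLA2G1B, the pancreatic form and a dim gene here, rose by 0.27 (adjusted p = 0.0390). It passed without CDK9 siRNA replicate 4 (0.0125), while leaving out any other array took the adjusted p to between 0.0597 and 0.114, and it did not pass in set 2 alone (0.0912).

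In the list of 11 genes of arachidonate supply and storage, 3 rose and 1 fell. ACSL4, which couples arachidonate to coenzyme A, rose by 0.35 (adjusted p = 0.0170), with 0.65 in set 1 and 0.25 in set 2. The desaturase FADS1 (0.19, adjusted p = 0.0274) and the monoacylglycerol lipase MGLL (0.25, adjusted p = 0.0425) rose as well, and both lost their calls under a replicate block (0.0812 and 0.0937). FADS1 also lost it without CDK9 siRNA replicate 2 or 3 or nonspecific siRNA replicate 2, 3 or 4 (0.0584 to 0.0963), and MGLL without any 1 array of set 2 (0.0704 to 0.122). MGLL differed by 0.01 in set 1 and 0.33 in set 2. DAGLA, a diacylglycerol lipase, fell by 0.26 (adjusted p = 0.0187). It was at -0.24 without CDK9 siRNA replicate 3 and -0.26 without nonspecific siRNA replicate 4, where the call was lost (adjusted p = 0.0601 and 0.0585). Of 12 lipoxygenase and leukotriene genes 0 passed in limma (1 had an unadjusted p under 0.05). The smallest p there was that of CYSLTR2, a dim gene (0.12, adjusted p = 0.159). In array set 2 alone ALOX15B (-0.24, adjusted p = 0.0384) and GGT5 (-0.22, 0.0254) passed as lower. The median log2 difference was 0.11 in the synthase list, 0.05 in the receptor list, 0.00 in the phospholipase list, 0.09 in the supply and storage list and -0.05 in the lipoxygenase list.

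**Figure D4:**
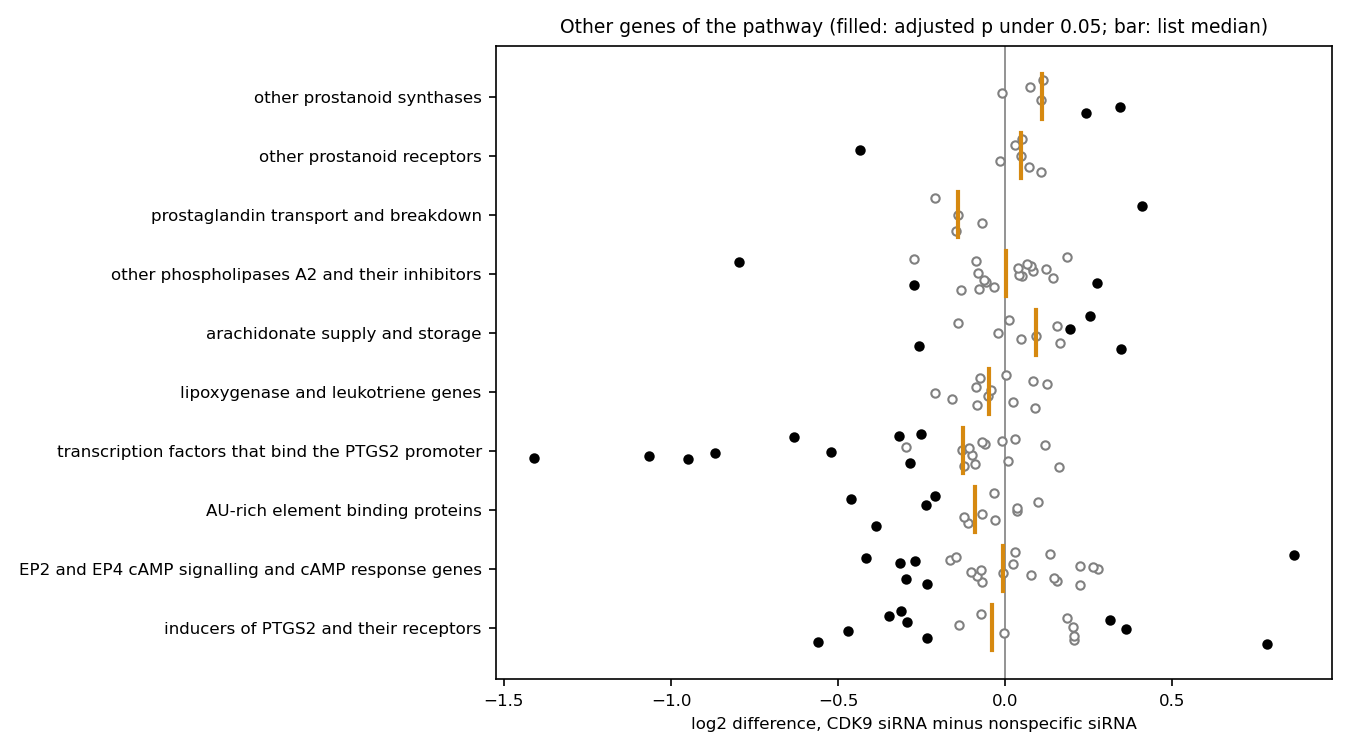
Log2 difference of CDK9 siRNA minus nonspecific siRNA (horizontal axis) for 134 other genes in 10 lists (rows); filled points passed an adjusted p of 0.05 over all genes, open points did not, and bars are list medians. In the list of transcription factors that bind the PTGS2 promoter 9 of 22 points are filled, all on the lower side. Over all genes 7.47% passed as lower and 6.73% as higher.

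Genes known to act on PTGS2 or downstream of its product were read in the same way. For these lists too, the shares over all genes were 7.47% called lower and 6.73% called higher, and nothing is read from the counts. Of 22 transcription factors reported to bind the PTGS2 promoter, 9 fell and 0 rose (list median -0.13). Besides the AP-1 and early growth response factors FOS, FOSB, FOSL2, JUN and EGR1, at -0.52 to -1.41, these were TCF7L2 (-0.63 ± 0.06, adjusted p = 0.000378), USF1 (-0.32, 0.0109), USF2 (-0.25, 0.0147) and CREB1 (-0.29, 0.0323). FOSB differed by 0.03 in set 1 and -1.43 in set 2, and FOS by -0.67 and -1.66. CREB1 lost its call under a replicate block (0.0729) and without any 1 array other than CDK9 siRNA replicate 4 (up to 0.0824). The NF-kappaB subunits NFKB1 (-0.07, adjusted p = 0.419) and RELA (-0.01, 0.937) and CEBPB (-0.12, 0.386) did not pass.

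Of 12 proteins that bind AU-rich elements, which control the life of transcripts such as that of PTGS2, 4 fell and 0 rose. ZFP36, which promotes decay, fell by 0.46 (adjusted p = 0.00112) and CELF1 by 0.39 (0.00177). ZFP36L1 (-0.21, adjusted p = 0.0304) and the translational repressor TIA1 (-0.24, 0.0457) lost their calls under a replicate block (0.0750 and 0.0808), and ELAVL1, the stabilising protein HuR, was at -0.03 (0.748). Leaving out any 1 array other than CDK9 siRNA replicate 2 for ZFP36L1, or replicate 4 for TIA1, also lost them, at up to 0.0963 and 0.125.

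Of 23 genes of EP2 and EP4 signalling through cAMP, 1 rose and 5 fell. PRKACB, a catalytic subunit of the cAMP-dependent kinase, rose by 0.86 ± 0.08 (log2, SE, n = 4 per group, limma adjusted p = 0.000298), with 8.71, 9.85, 10.04 and 9.96 in CDK9 siRNA against 8.11, 9.05, 9.05 and 8.90 in nonspecific siRNA. Its arrays lay apart in both sets. The cAMP-responsive clock gene PER1 fell by 0.42 (adjusted p = 0.00422), the arrestin ARRB1 by 0.30 (0.00421) and the adenylate cyclase ADCY6 by 0.23 (0.0192). The cAMP phosphodiesterases PDE4A (-0.31, adjusted p = 0.0451) and PDE4B (-0.27, 0.0425) fell by small amounts and lost their calls under a replicate block (0.0560 and 0.0819). PDE4A differed by -0.07 in set 1 and -0.39 in set 2. ADCY6 did not pass without CDK9 siRNA replicate 3 or 4 or nonspecific siRNA replicate 2 or 3 (up to 0.0704), PDE4A without these or nonspecific siRNA replicate 4 (up to 0.125), and PDE4B without any 1 of the 8 (up to 0.110). Under a replicate block NR4A1, an immediate-early nuclear receptor, passed as higher (0.28, adjusted p = 0.0377, against 0.0825 with the array set as a block), which left 2 higher and 3 lower genes in this list.

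Among 16 genes for inducers of PTGS2 and their receptors, 3 rose and 6 fell. The interleukin 1 receptor IL1R1 fell by 0.47 ± 0.06 (adjusted p = 0.00145), with 5.83, 7.31, 7.24 and 7.34 in CDK9 siRNA against 6.48, 7.72, 7.77 and 7.64 in nonspecific siRNA, while its accessory chain IL1RAP rose by 0.36 (0.00214). The receptors EGFR (-0.56, adjusted p = 0.00578), TNFRSF1A (-0.31, 0.00424) and PDGFRA (-0.29, 0.00954, dim) fell, as did the ligands TGFB1 (-0.35, 0.00160) and HBEGF (-0.24, 0.0336). EGF rose by 0.78 (adjusted p = 0.00181) and PDGFRB by 0.31 (0.0302). PDGFRB differed by 0.01 in set 1 and 0.42 in set 2. HBEGF and PDGFRB lost their calls under a replicate block (0.0817 and 0.0779), HBEGF without any 1 array other than nonspecific siRNA replicate 3 (up to 0.0973) and PDGFRB without any 1 array of set 2 (up to 0.0945). IL1B (-0.01, adjusted p = 0.980), a strong inducer of PTGS2 and a dim gene here, did not pass. In array set 2 alone 13 listed genes passed that did not over both sets, 5 as higher and 8 as lower. That fit called more of all genes too, 18.1% (9.52% higher and 8.57% lower) against 14.2% over both sets. Nothing is read from the 13. Besides the 4 named above these were S100A10, ATF2, GNAI1, CREM and NR4A2 as higher (0.20 to 0.46) and JUNB, FOSL1, PDE4D and PDGFA as lower (-0.18 to -0.36). CREM and PDE4D are dim. The median was -0.09 over the AU-rich element binding proteins, -0.01 over the cAMP genes and -0.04 over the inducers and receptors.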

How the data were processed

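The deposited table holds log2 values of 33297 probe sets on 8 arrays. RMA was among the tools, per the submitters' processing notes, with Expression Console 1.1 of Affymetrix, limma and build hg19; no source used here says what each did, or which arrays were normalized together. The platform annotation gave 1 symbol for 19460 probe sets, and the one with the highest mean was kept for each of 18417 genes. RefSeq tables (GRCh38.p14) changed 0 symbols.

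The comparison used lmFit and eBayes of limma 3.58.1 (R 4.3.3), two-sided, with the array set as a block, no filter on low values, and a threshold of 0.05 on p adjusted by Benjamini-Hochberg over all genes. The fit was tested on simulated data with independent noise. These held no group difference that varied between the array sets, so the test does not cover that case. Tables were made in Python 3.11.15 (numpy 2.4.6, pandas 2.3.3) and figures with matplotlib 3.10.9. The labels do not describe the cultures beyond calling the replicates biological quadruplicates. Deviations from the group means correlated within same-numbered pairs at 0.822, 0.537, 0.494 and 0.607, all above the limit of 0.1 for treating the numbers as pairs. Differently numbered arrays of set 2 correlated at 0.405 to 0.561. The group means span both array sets, so the shift between sets enters these deviations. Passing the limit therefore does not show that the arrays were paired.

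The genes, lists and tests were chosen with earlier results of these data known. Named were the 10 prostaglandin genes, CDK9, each listed pathway gene past the threshold (in a list with none, that with the smallest p) and the 5 genes most like PTGS2; other names were added after their values were seen. Of 146 listed pathway genes 134 were measured. Array number limits the precision.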

Additional observations from a re-analysis of the deposited data

Results flagged for a closer look

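After the array set's mean was subtracted, 1 array lay far from the other 3 of its group in 2 of 22 cases (11 genes, the 10 prostaglandin genes and CDK9, in 2 groups). For independent values chance gives about 1 in 20. The subtraction makes the replicate 1 values of the 2 groups equal in size and opposite in sign, so that rate need not hold here. CDK9 siRNA replicate 2 had a low PTGS1 value, with a gap of 0.905 of the group's range. Nonspecific siRNA replicate 3 had a low PTGES3 value, with a gap of 0.870 of the range.

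For 6 of the 134 listed pathway genes measured, the CDK9 siRNA effect differed between the array sets in the limma interaction test, which 2.14% of all genes passed. Set 1 holds 1 array per group, so the test takes its spread from set 2. The log2 difference in set 1 minus that in set 2 was 0.99 for FOS (adjusted p = 0.0355), 1.46 for FOSB (0.0223), 0.76 for PDE4D (0.0374) and 0.58 for GGT5 (0.0421), and of the opposite sign for PNPLA8 (-0.74, adjusted p = 0.0237) and GNAI1 (-0.70, 0.0353). FOS differed by -0.67 in set 1 and -1.66 in set 2, and FOSB by 0.03 and -1.43. PNPLA8 differed by -0.83 in set 1 and -0.09 in set 2, and GNAI1 by -0.45 and 0.25.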

How the results depend on the processing

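The PTGS2 difference in the 15 alternatives run went from -0.77 without CDK9 siRNA replicate 3 to -1.18 without replicate 1 of either group. Leaving out either replicate 1 gives the value of array set 2 alone. The fits without a block, with a replicate block, without dim genes and on probe set means could not move it from -0.90. None used array set 1 alone, where the difference was -0.07, so nothing is read from the shared direction. Without a block 0 genes passed in limma, higher or lower, in all genes and in the pathway lists, and 28 higher and 23 lower genes of all had an unadjusted p under 0.05; the difference between array sets then enters the residual. Under a replicate block (same-numbered arrays treated as pairs) 813 genes were higher and 875 lower, against 1239 and 1376 with the array set as a block. The 9 of the 39 pathway calls that this lost are given in the report, 1 call (NR4A1) was gained, and the block changed no call among the 10 prostaglandin genes. Leaving out 1 array gave 714 to 1753 higher and 806 to 1578 lower genes, and 6 to 15 higher pathway genes against 11 and 19 to 31 lower against 28; counts fell by over 1.5 times without CDK9 siRNA replicate 3 or nonspecific siRNA replicate 2 (higher genes only), 3 or 4. Of the 39 pathway calls, 24 held in every alternative other than the fit without a block. The difference between array sets in PTGS2 was 1.11, and 1.05 to 1.11 in the 4 alternatives run for it. With dim genes left out 1309 genes passed the interaction test, against 395; the cause was not tested. None of the called prostaglandin genes, the 39 called pathway genes or CDK9 changed direction in these alternatives. The cell type markers were not followed through them. PTGS1, PTGER4, PLA2G4A and HPGD are dim, and the table used here holds no detection calls to show whether they lie above background. The same limit holds in array set 1 for PTGS2 (4.73 with CDK9 siRNA, 4.80 with nonspecific siRNA) and PTGER2 (4.63 and 5.12).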

Other observations

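The genes with a shift between array sets under nonspecific siRNA at least as large as that of PTGS2 (3.27 on the log2 scale) were looked at after the values were seen. There were 20, PTGS2 included. Among them were HAS2, which encodes a hyaluronan synthase, with a shift of 4.43, FOS with 3.87, PHLDA1 with 3.63, EGR1 with 3.54 and RGS4, a regulator of G protein signalling, with 3.61. In array set 2, 17 of the 20 were lower with CDK9 siRNA without overlap of the groups, 2 were higher and 1 overlapped; over all genes 19.5% were lower without overlap. The shift and the difference share the nonspecific siRNA arrays of set 2, so a gene with a high value there tends to show both. In array set 1, 17 of the 20 were lower with CDK9 siRNA and 3 were higher, where the median difference over all genes was 0.00. Set 1 holds 1 array per group, and its nonspecific siRNA array also entered the choice of the 20. Nothing is therefore read from the count in set 1. The differences there were -2.04 for PDE5A, -1.01 for GPNMB, -0.74 for EGR1 and -0.67 for FOS, whereas HAS2 (-0.02), PHLDA1 (-0.05) and RGS4 (0.18) were near 0 or above it, as PTGS2 was near 0.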
